A study of Mus musculus with 4 samples.

Results

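The genes described here are 8 transcription factors that specify or mark epithelial lineages of the prostate: the forkhead factors Foxa1 and Foxa2, the zinc finger factors Gata2 and Gata3, the HMG-box factors Sox2 and Sox9, the p53 relative Trp63 and the proto-oncogene Myc. They were chosen by name, and all 8 were found among the 23242 rows of the deposited expression table. They are not all luminal factors: Trp63 is the defining factor of basal cells, and Foxa2 belongs to budding and neuroendocrine epithelium. Transcripts were sequenced from the ventral and dorsal lobes of FVB mouse prostates. The 2 homozygotes (mice 26 and 29) carry a TMPRSS2:ERG transgene on both copies, and the 2 wild-type mice (27 and 28) do not carry it. The transgene holds exons of human ERG in a bacterial artificial chromosome with the TMPRSS2 locus, whose regulatory sequence drives it. All homozygotes descend from 1 sub-line, obtained by injecting Cre protein into pronuclei of 1 GFP-expressing founder line, so effects of the insertion site cannot be told apart from effects of ERG. The labels give each library its own mouse. No age is given for the mice.

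In the prostate, FOXA1 opens chromatin for androgen-driven transcription in luminal cells, and GATA2 and GATA3 bind many of the same regulatory elements. Trp63 encodes p63, which maintains the basal layer. SOX9 is needed for prostate bud outgrowth, SOX2 is a progenitor and neural factor, and MYC is a bHLH factor that drives growth when paired with MAX. TMPRSS2:ERG is a common rearrangement of human prostate cancer, and the comparison asks which transcripts differ in mouse lobes that carry it.

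Of the 7 lineage factors that could be tested, Sox2 rose in homozygotes, and Foxa1, Gata2, Gata3, Sox9, Trp63 and Myc did not pass the test. Sox2 was about 2.51 times as high in homozygotes as in wild type by the ratio of means. Foxa2 was close to 0 in every library and fell below the filter on low values. Levels are in scaled FPKM, the deposited fragments per kilobase and per 1e6 fragments after division by a scaling factor per library. The test was limma on log2(scaled FPKM + 1), adjusted over the 11762 genes whose mean reached 1 scaled FPKM. In that test 7.65% of all genes passed an adjusted p of 0.05 in either direction, and 4.65% were higher in homozygotes. The 1 call among 7 is a count too small to be set apart from that share. The 7 tested factors had a median log2 fold change of 0.20, with 6 above 0 and 1 below, against a median of -0.003 over all genes tested. Of all 11762 genes tested, 5810 lay above 0. The sign of Foxa1, Gata2, Gata3, Sox9 and Trp63 changed in at least 1 alternative processing, as given below. In bulk tissue, a change in the share of a cell type and a change in RNA per cell cannot be told apart.

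**Figure D1:**
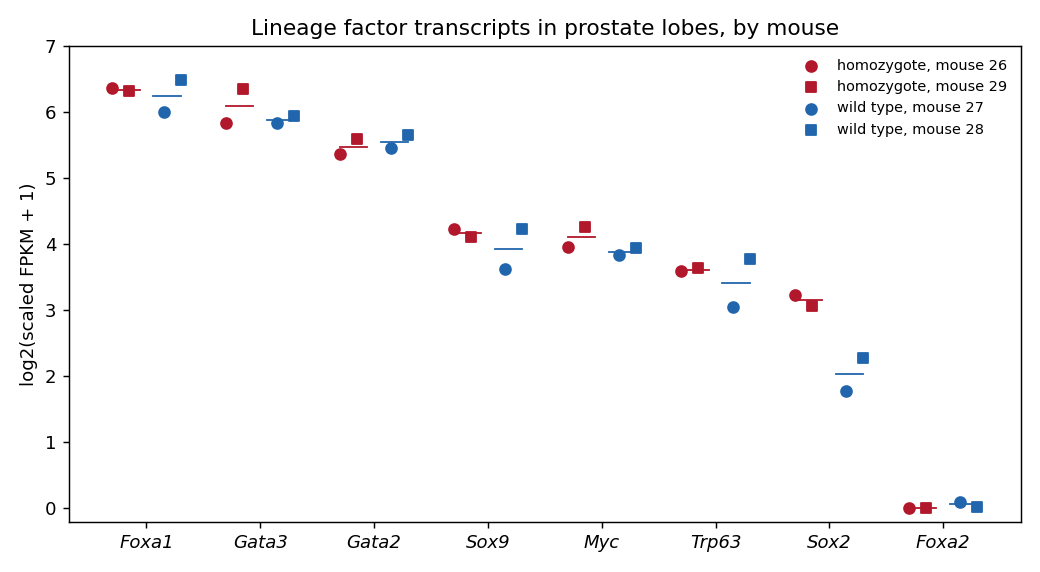
Levels of the 8 lineage factors as log2(scaled FPKM + 1), 1 point per mouse, with homozygotes in red left of wild type in blue and a line at each group mean. The groups are apart for Sox2, while wild-type mouse 27 lies below the other 3 libraries for Foxa1, Sox9 and Trp63.

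The upstream sequences of Sox2, which rose, and of Gata3, which did not pass the test, are shown because ERG belongs to the ETS family, whose members bind a GGAA core, and both hold its longer form. Each is the 250 bases before a transcription start in RefSeq (GRCm38.p6), for Sox2 at chr3:34649745-34649994 on the plus strand and for Gata3 at chr2:9878601-9878850 on the minus strand. In GENCODE the Sox2 window lies in the span of Sox2ot, and the Gata3 window lies inside the span of longer Gata3 transcripts and in an exon of the antisense gene Gm13256. GENCODE starts Sox2 itself at 34650405, downstream of the RefSeq start used for this window. Capitals mark each GGAA and its reverse complement TTCC.
Sox2: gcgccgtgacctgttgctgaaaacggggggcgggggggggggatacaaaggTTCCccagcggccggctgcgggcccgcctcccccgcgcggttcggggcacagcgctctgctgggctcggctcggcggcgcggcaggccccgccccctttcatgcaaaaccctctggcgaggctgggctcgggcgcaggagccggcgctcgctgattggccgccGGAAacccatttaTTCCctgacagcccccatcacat
Gata3: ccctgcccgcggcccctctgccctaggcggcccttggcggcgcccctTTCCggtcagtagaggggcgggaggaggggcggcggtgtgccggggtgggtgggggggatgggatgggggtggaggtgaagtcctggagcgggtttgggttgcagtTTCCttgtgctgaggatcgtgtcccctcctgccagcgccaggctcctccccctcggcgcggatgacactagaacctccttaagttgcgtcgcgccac
The Sox2 window held 3 such matches and the Gata3 window 2, and the median over 32851 windows of this length was 3, with 93.4% holding at least 1. The longer CCGGAA, searched with its reverse complement TTCCGG and containing the shorter core, occurred once in each of these windows and in 1 of 3 windows of Foxa2, and in no window of Foxa1 or Gata2. Of all windows 12.0% held it. These matches describe letters in a window and are not evidence of binding. Of the 8 genes, 5 had an entry in the RefSeq promoter table.

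Sox2 (Entrez 20674, chromosome 3, 34650005 to 34652460, mm10), a 1-transcript gene in GENCODE, was at 8.35 and 7.40 scaled FPKM in homozygous mice 26 and 29, against 2.42 and 3.86 scaled FPKM in wild-type mice 27 and 28. Both homozygotes were therefore above both wild types. Group levels were 7.88 ± 0.672 scaled FPKM in homozygotes and 3.14 ± 1.02 scaled FPKM in wild type (SD, n = 2 each). Sox2 rose by 1.12 on the log2 scale (SE 0.190, 95% interval 0.65 to 1.59, limma adjusted p = 0.0265). Because 1 FPKM is added before the log, this understates the ratio at so low a level. In the authors' deposited table the Sox2 fold was 1.37 on the log2 scale, at a q-value of 3.83e-05; 14.2% of the genes with a q-value there were under 0.05. From an estimated depth of 45.3 to 52.0 × 1e6 fragments per library, the Sox2 values correspond to roughly 787 and 827 fragments in mice 26 and 29 and 207 and 370 fragments in mice 27 and 28.

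The Sox2 difference kept its direction in all 13 alternatives, with log2 fold changes between 0.87 and 1.37, but the call was lost in 4 of them. The limma adjusted p was 0.0508 with unscaled FPKM, 0.0786 without a filter on low values, 0.102 without homozygous mouse 26 and 0.0634 without homozygous mouse 29. It was 0.00312 without wild-type mouse 27 and 9.13e-04 without wild-type mouse 28. The exact permutation test over the 6 arrangements of the libraries gave a two-sided p of 0.333, the smallest this design allows. Sox2 lies within the span of the noncoding gene Sox2ot on the same strand. Sox2ot was at 0.0493 and 0.0552 FPKM in homozygotes 26 and 29 and 0.0310 and 0.0364 FPKM in wild types 27 and 28, far under Sox2 in each library.

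**Figure D2:**
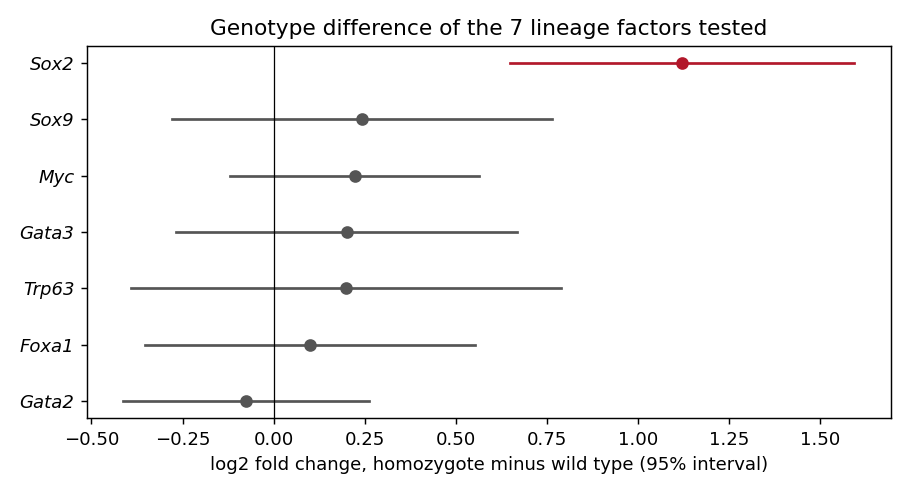
Log2 fold change of each tested lineage factor, homozygote minus wild type, with its 95% interval from limma, in red where the adjusted p is under 0.05. The Sox2 interval runs from 0.65 to 1.59, and the other 6 intervals include 0.

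Sox9, the other HMG-box factor, was at 17.7 and 16.2 scaled FPKM in homozygotes 26 and 29, against 11.3 and 17.8 scaled FPKM in wild types 27 and 28. The homozygotes lay inside the range of the wild types, which differed by a factor of 1.57. The log2 fold change was 0.24 (SE 0.209, 95% interval -0.28 to 0.76, limma adjusted p = 0.600). Within a library, the log2 ratio of Sox9 to Sox2, with 1 added to each scaled FPKM, was 1.00 and 1.04 in homozygotes 26 and 29 and 1.85 and 1.95 in wild types 27 and 28. Sox9 thus exceeded Sox2 in all 4 libraries, by a smaller margin in both homozygotes (difference -0.88, exact two-sided permutation p = 0.333, the smallest possible). Its spread between mice of a genotype was small (SD 0.0244 in homozygotes and 0.0721 in wild type, n = 2 each). The added 1 shrinks the ratio at these levels: with 0.1 added the difference was -1.08. From the deposited FPKM with nothing added, where scaling between libraries cancels, the log2 ratio was 1.08 and 1.13 in homozygotes 26 and 29 and 2.22 and 2.20 in wild types 27 and 28.

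Foxa1 (Entrez 15375, chromosome 12, 57540632 to 57546121), the pioneer factor of luminal cells, had the highest mean of the 8. Its level was 81.0 and 79.1 scaled FPKM in homozygotes 26 and 29, against 62.8 and 88.8 scaled FPKM in wild types 27 and 28. The homozygotes again lay between the wild types. The log2 fold change was 0.10 (SE 0.182, 95% interval -0.35 to 0.55, limma adjusted p = 0.833), so folds between 0.783 and 1.47 remain inside the interval. Foxa1 stood above 93.1% of the tested genes by mean level.

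Foxa2, its paralog in budding and neuroendocrine epithelium, was listed at 0 and at 0.00880 scaled FPKM in homozygotes 26 and 29, against 0.0663 and 0.0198 scaled FPKM in wild types 27 and 28. Both homozygotes were below both wild types, but every value is far under the minimum mean of 1 scaled FPKM, no fold is given, and the exact permutation p was 0.333. Foxa1 was thus the transcript measured of this pair in every library.

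Gata3 (Entrez 14462, chromosome 2, 9857078 to 9878600) was at 55.9 and 80.2 scaled FPKM in homozygotes 26 and 29, against 55.8 and 60.6 scaled FPKM in wild types 27 and 28. Mouse 29 alone was high, and mouse 26 was level with mouse 27. The log2 fold change was 0.20 (SE 0.188, 95% interval -0.27 to 0.67, limma adjusted p = 0.634). In GENCODE the antisense gene Gm13256 overlaps Gata3, and as no source used here states strandedness, reads of the pair cannot be told apart. Gata2 (Entrez 14461, chromosome 6, 88198664 to 88207032) was at 40.0 and 47.4 scaled FPKM in homozygotes 26 and 29, against 42.9 and 49.1 scaled FPKM in wild types 27 and 28. The groups overlapped, with a log2 fold change of -0.08 (SE 0.136, 95% interval -0.41 to 0.26, limma adjusted p = 0.828). Gata2 had the narrowest interval of the 7, one that leaves folds from 0.751 to 1.20. The log2 ratio of Gata3 to Gata2, with 1 added to each, was 0.47 and 0.75 in homozygotes 26 and 29, against 0.37 and 0.30 in wild types 27 and 28, a difference of 0.28 (exact two-sided permutation p = 0.333). Both genes also work outside prostate epithelium, Gata2 in mast cells and endothelium and Gata3 in T cells and innate lymphocytes.

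Trp63 (Entrez 22061, chromosome 16, 25683765 to 25892088) was at 11.1 and 11.4 scaled FPKM in homozygotes 26 and 29, against 7.31 and 12.7 scaled FPKM in wild types 27 and 28. The homozygotes were close to each other and lay between the wild types, which differed by a factor of 1.74. The log2 fold change was 0.20 (SE 0.237, 95% interval -0.39 to 0.79, limma adjusted p = 0.721), the widest interval of the 7. Set against the geometric mean of the basal keratins Krt5, Krt14 and Krt15, the log2 ratio of Trp63, with 1 added to its scaled FPKM, was -1.89 and -1.66 in homozygotes 26 and 29 and -1.46 and -1.63 in wild types 27 and 28. On that measure both homozygotes were lower, by a difference of -0.23 (exact two-sided permutation p = 0.333). The keratins themselves averaged 44.8 and 39.3 scaled FPKM in homozygotes 26 and 29 and 22.9 and 42.3 scaled FPKM in wild types 27 and 28, so mouse 27 was low in basal keratins as in Trp63. Trp63 has 8 annotated transcripts in GENCODE, which the table does not separate.

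Myc (Entrez 17869, chromosome 15, 61985341 to 61990361) was at 14.5 and 18.2 scaled FPKM in homozygotes 26 and 29, against 13.2 and 14.4 scaled FPKM in wild types 27 and 28. The groups did not overlap, but mouse 26 and mouse 28 were nearly level. Before scaling, mouse 26 was at 14.7 and mouse 28 at 14.8 FPKM, so the groups overlapped there. The log2 fold change was 0.22 (SE 0.137, 95% interval -0.12 to 0.56, limma adjusted p = 0.442). For Myc the deposited fold of the authors was 0.33 on the log2 scale, at a q-value of 0.0623 in the authors' deposited table. In scaled FPKM, Sox2 and Myc were the members whose homozygotes both exceeded the wild types, 2 of the 7 tested. Of all tested genes 25.3% did so and 51.1% did not overlap in either direction.

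By mean level over the 4 libraries the order was Foxa1, Gata3, Gata2, Sox9, Myc, Trp63, Sox2 and Foxa2. Foxa1 exceeded Gata3 in 3 of 4 libraries and their ranges overlapped. Sox9 exceeded Myc in 2 of 4, so these neighbours did not differ beyond their spread. Trp63 exceeded Sox2 in each library although their ranges overlapped, while Gata3 and Gata2, Gata2 and Sox9, Myc and Trp63, and Sox2 and Foxa2 had separate ranges.

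The wild types differed from each other more than the homozygotes did for 4 of the tested factors. Mouse 28 was above mouse 27 by a factor of 1.41 for Foxa1, 1.57 for Sox9, 1.60 for Sox2 and 1.74 for Trp63, whereas Gata2, Gata3 and Myc gave 1.14, 1.09 and 1.09. Over all tested genes the median of this factor was 1.01, and 5.78% of genes reached 1.5. With mouse 27 as the lone wild type, the calls grew to 3: besides Sox2, Sox9 rose by 0.55 (limma adjusted p = 0.0223) and Trp63 by 0.56 (limma adjusted p = 0.0191). In that fit 13.9% of all genes passed and 8.35% were higher in homozygotes, so calls were more frequent over the whole table too. With mouse 28 as the lone wild type, the log2 fold changes were -0.06 for Sox9, -0.16 for Trp63 and -0.15 for Foxa1, and none of these passed. Sox2 was the 1 factor called in that fit, where 17.2% of all genes passed and 8.43% were higher in homozygotes. In those fits the lone library is assumed to vary like the other genotype. For Foxa1, Sox9 and Trp63 the sign of the genotype difference thus rests on which wild type is used, and for Sox2 it does not. Gata2 also changed sign, with log2 fold changes of -0.17 without mouse 27 and 0.02 without mouse 28. Tissue markers also differed, between the wild types and between genotypes. Smooth muscle markers summed to 1354 and 1591 scaled FPKM in homozygotes 26 and 29, against 2758 and 1893 scaled FPKM in wild types 27 and 28. All 10 smooth muscle genes lay below 0, with a median log2 fold change of -0.58. Of these, 8 had an unadjusted limma p under 0.05 and 0 passed after adjustment. Over all 11762 tested genes, 2475 had an unadjusted limma p under 0.05. The seminal vesicle gene Svs1 was at 3.83 and 1.05 scaled FPKM in homozygotes 26 and 29 and 3421 and 236 scaled FPKM in mice 27 and 28. The part of these differences in the lineage factor values was not tested.

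**Figure D3:**
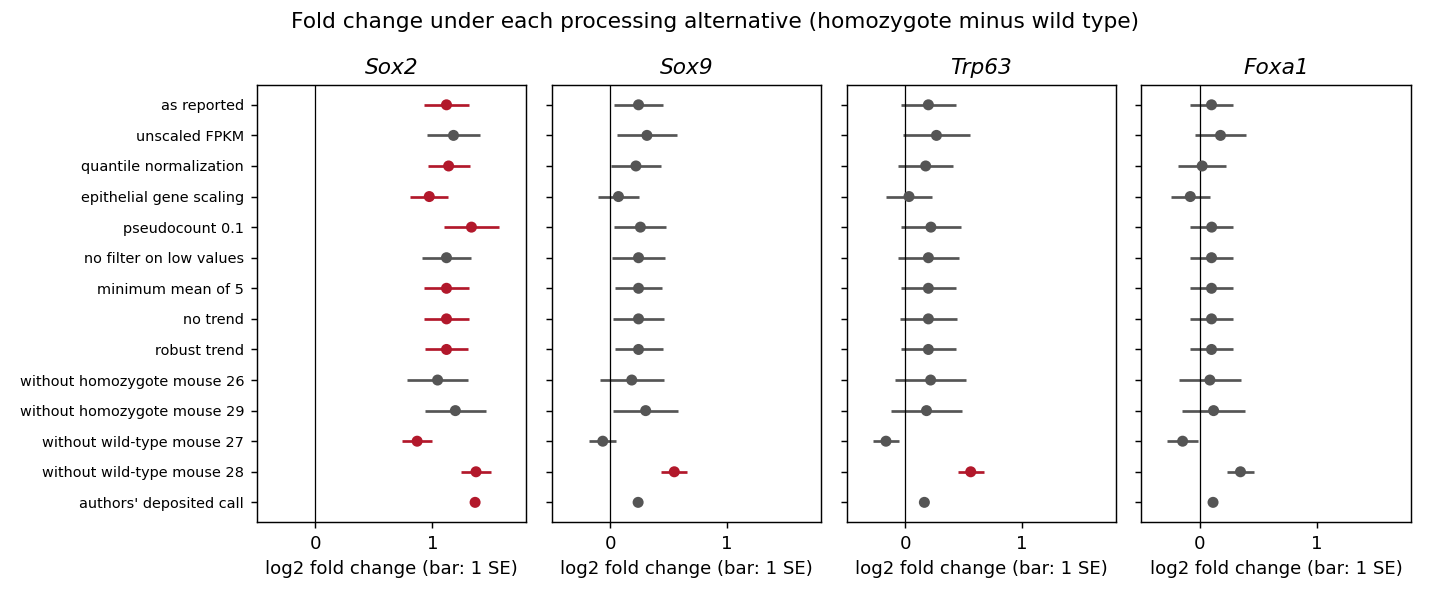
Log2 fold change of Sox2, Sox9, Trp63 and Foxa1 as reported and under each alternative, with bars of 1 SE either way and red where the adjusted p or deposited q-value is under 0.05. Sox2 stays between 0.87 and 1.37, while Sox9, Trp63 and Foxa1 fall below 0 without wild-type mouse 27.

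The lobes carried the markers of prostate epithelium in all libraries: probasin (Pbsn), a secretory product of luminal cells, was at 14386 and 11155 scaled FPKM in homozygotes 26 and 29 and 12135 and 9477 scaled FPKM in wild types 27 and 28. Each factor was also set, with 1 added to its scaled FPKM, against the geometric mean of the epithelial genes Epcam, Cdh1, Krt8 and Krt18 within its library. The log2 ratio of Sox2 was -4.51 and -4.69 in homozygotes 26 and 29 and -5.69 and -5.39 in wild types 27 and 28, a difference of 0.94 with both homozygotes higher, or 1.15 with 0.1 added. Gata2 was lower in both homozygotes on this measure, by -0.26 (exact two-sided permutation p = 0.333), and Foxa1, Gata3, Sox9, Trp63 and Myc overlapped between genotypes with differences from -0.09 to 0.06. Epcam, the gene of an epithelial adhesion molecule, itself rose in homozygotes by 0.79 (SE 0.145, limma adjusted p = 0.0328), a call lost with epithelial gene scaling, without a filter, and without mouse 26, mouse 29 or mouse 28. With Epcam left out of the denominator, an alternative chosen after seeing the data, the Sox2 difference was 1.14, and that of Gata2 was -0.06 with overlapping genotypes. Sox9 (0.26), Trp63 (0.22) and Myc (0.24) then had both homozygotes above the wild types, while Foxa1 (0.12) and Gata3 (0.22) still overlapped. Leaving out Epcam raises the difference of every factor alike. In scaled FPKM, 25.3% of all tested genes had both homozygotes above the wild types.

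**Figure D4:**
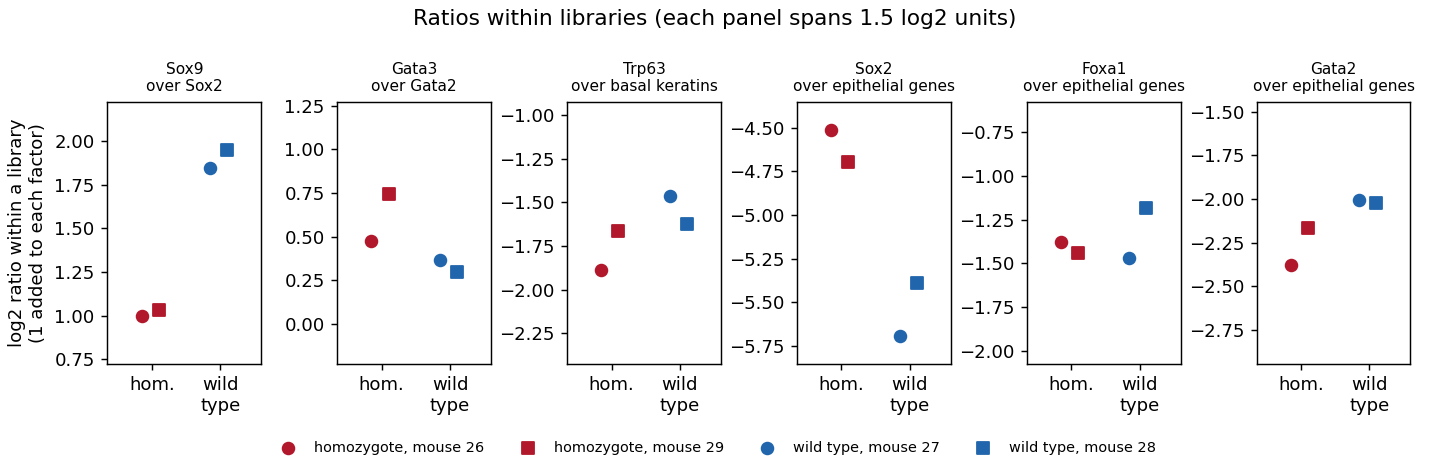
Log2 ratios within each library with 1 added to the scaled FPKM of each factor, 1 point per mouse, homozygotes left of wild type, on panels of equal span. Sox9 over Sox2 lies near 1.00 in homozygotes and from 1.85 to 1.95 in wild type, while Foxa1 over epithelial genes overlaps between genotypes.

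Markers of other cells that use these factors were read beside them. Among Schwann cell and nerve genes, which include the glial factor Sox10, 0 of 4 tested passed limma, with 1 at an unadjusted p under 0.05 and 1 of 7 called in the authors' deposited table. All 4 lay below 0, and the summed list was at 22.7 and 24.1 scaled FPKM in homozygotes 26 and 29 against 24.5 and 39.1 in wild types 27 and 28. Among neuroendocrine genes 1 of 9 tested rose, the calcitonin gene Calca (log2 fold change 1.78, SE 0.128, limma adjusted p = 0.00163), and 1 fell, the adhesion gene Ncam1 (-1.11, SE 0.219, limma adjusted p = 0.0417), a call lost with unscaled FPKM, without a filter and without mouse 26 or mouse 29. Calca was the 1 gene above 0, and the other 8 tested lay below. The neuroendocrine median was -0.97, and it ranged from -1.81 to -0.04 over the 13 alternatives. The authors called 11 of 13 in their deposited table, Calca and Ncam1 among them. The neuroendocrine list summed to 24.5 and 21.8 scaled FPKM in homozygotes 26 and 29. It was at 23.5 and 88.5 scaled FPKM in wild types 27 and 28, the last value standing apart. The ubiquitin hydrolase gene Uchl1 made up 44.7 scaled FPKM of that value. The neuroendocrine regulator Insm1 was below 0.2 scaled FPKM in each library. The part of these cells in the Sox2 values was not tested.

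Mast cell genes did differ: 6 of 7 tested rose, and the list summed to 302 and 236 scaled FPKM in homozygotes 26 and 29 against 13.6 and 15.2 scaled FPKM in wild types 27 and 28. Gata2, a factor of mast cells as well as epithelium, overlapped between genotypes beside them, and Gata1, its relative in mast and red cells, was at 0.0949 and 0.106 scaled FPKM in homozygotes 26 and 29 and 0.0269 and 0.0116 scaled FPKM in wild types 27 and 28. Endothelial genes had 0 of 13 pass limma, 1 at an unadjusted p under 0.05 and 0 in the authors' deposited table, with all 13 below 0. T cell and innate lymphocyte genes, where Gata3 acts, summed to 15.6 and 16.3 scaled FPKM in homozygotes 26 and 29 and 17.7 and 17.2 scaled FPKM in wild types 27 and 28. Only 2 of the 11 genes found were tested, and 0 passed limma. Thy1 made up 8.65 and 8.30 of these sums in homozygotes 26 and 29 and 10.6 and 12.0 in wild types 27 and 28. Urothelium, which uses Foxa1, Gata3 and Trp63, had 0 of 9 genes pass limma, 0 at an unadjusted p under 0.05 and 8 called in the authors' deposited table. Its list summed to 433 and 441 scaled FPKM in homozygotes 26 and 29 and 318 and 782 scaled FPKM in wild types 27 and 28. Of these sums Upk1a made up 389 and 331 in homozygotes 26 and 29 and 266 and 445 in wild types 27 and 28. The gap between the wild-type sums was not mainly due to Upk1a. From mouse 27 to mouse 28, Sprr1a went from 4.61 to 134, Upk3a from 1.91 to 51.7 and Upk2 from 4.62 to 42.9 scaled FPKM. Of the 9 tested urothelial genes 1 lay above 0 and 8 below, with a median log2 fold change of -0.67. That median ranged from -1.96 to 0.52 over the 13 alternatives. The part of these cell types in the Foxa1, Gata2, Gata3 and Trp63 values was not tested.

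The relatives of the factors are counted beside the 7.65% of all genes that passed. Counts at an unadjusted limma p under 0.05 stand beside 2475 of all 11762 tested genes. In the FOX family 14 of 25 genes were tested and 1 fell, Foxi1, a forkhead factor of acid-secreting cells in other epithelia. Foxi1 was at 4.50 and 6.60 scaled FPKM in homozygotes 26 and 29, against 12.2 and 13.0 scaled FPKM in wild types 27 and 28. Both homozygotes were lower (log2 fold change -1.07, SE 0.173, limma adjusted p = 0.0227), and the call was lost with unscaled FPKM (0.0589), without a filter (0.0662) and without mouse 26 (0.0900). Of the GATA family and its partners 6 of 12 were tested and 1 rose, Lmo2, whose LIM-domain product bridges GATA and TAL1 proteins. Lmo2 was at 49.9 and 51.2 scaled FPKM in homozygotes 26 and 29, against 26.7 and 27.4 scaled FPKM in wild types 27 and 28 (log2 difference 0.88 with an SE of 0.1002, limma adjusted p = 0.00741). That call was lost without mouse 26 (0.0687) and without mouse 29 (0.0742).

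Of the SOX family 4 of 17 relatives were tested and 0 passed limma, with 1 at an unadjusted p under 0.05 and 1 called in the authors' deposited table. That gene was Sox13, at 9.57 and 9.97 scaled FPKM in homozygotes 26 and 29 against 4.88 and 6.65 scaled FPKM in wild types 27 and 28 (log2 difference 0.68, limma adjusted p = 0.0583). Among the rest, the SOX genes Sox1, Sox3, Sox14 and Sox21, relatives of Sox2 in its own or a near subgroup, did not reach the filter. Of the p53 family and its regulators 0 of 6 tested passed limma, with 1 at an unadjusted p under 0.05 and 0 called in the authors' deposited table. Trp53 was at 19.9 scaled FPKM in each homozygote and at 14.1 and 16.8 scaled FPKM in wild types 27 and 28 (log2 fold change 0.35, SE 0.119, limma adjusted p = 0.171).

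In the MYC and MAX network 0 of 11 tested passed limma, with 2 at an unadjusted p under 0.05 and 2 called in the authors' deposited table. Its most separated members were Mxi1, an antagonist of MYC (-0.40, SE 0.109, limma adjusted p = 0.0994), and Mycl1, a MYC paralog (-0.47, SE 0.161, limma adjusted p = 0.173). Among reported MYC targets 1 of 27 fell, the cyclin D2 gene Ccnd2, at 4.34 and 4.13 scaled FPKM in homozygotes 26 and 29 against 13.4 and 19.0 scaled FPKM in wild types 27 and 28. Its log2 fold change was -1.69 (SE 0.174, limma adjusted p = 0.00521), a call kept in all 13 alternatives. The list's median was -0.01, with 12 genes above 0 and 15 below. Ornithine decarboxylase, Odc1, came next without passing (-0.59, SE 0.165, limma adjusted p = 0.109). Of the other epithelial lineage regulators 0 of 17 passed limma, with 4 at an unadjusted p under 0.05 and 2 called in the authors' deposited table, Tfap2c (0.69, limma adjusted p = 0.0558) and Tfcp2l1 (-0.79, limma adjusted p = 0.0742).

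The marker genes of the layers that these factors maintain were mixed. In luminal epithelium 2 of 22 tested rose, Epcam and the ETS factor gene Spdef (0.90, SE 0.106, limma adjusted p = 0.00848), and 2 fell, the keratin gene Krt4 (-1.40, SE 0.272, limma adjusted p = 0.0394) and the surface antigen gene Psca (-2.37, SE 0.185, limma adjusted p = 0.00209). The Krt4 call was lost with unscaled FPKM, quantile normalization and no filter, and without mouse 26 or mouse 29, and that of Spdef without mouse 26 (0.0874). The median was 0.05, with 12 above 0 and 10 below. Among basal epithelium and p63 targets 1 of 21 rose, the integrin gene Itga6 (0.70, SE 0.142, limma adjusted p = 0.0456). The Itga6 call was lost in 7 of 13 alternatives, among them those without mouse 26 (0.214) or mouse 29 (0.217). The basal median was 0.14, with 15 above 0 and 6 below.

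**Figure D5:**
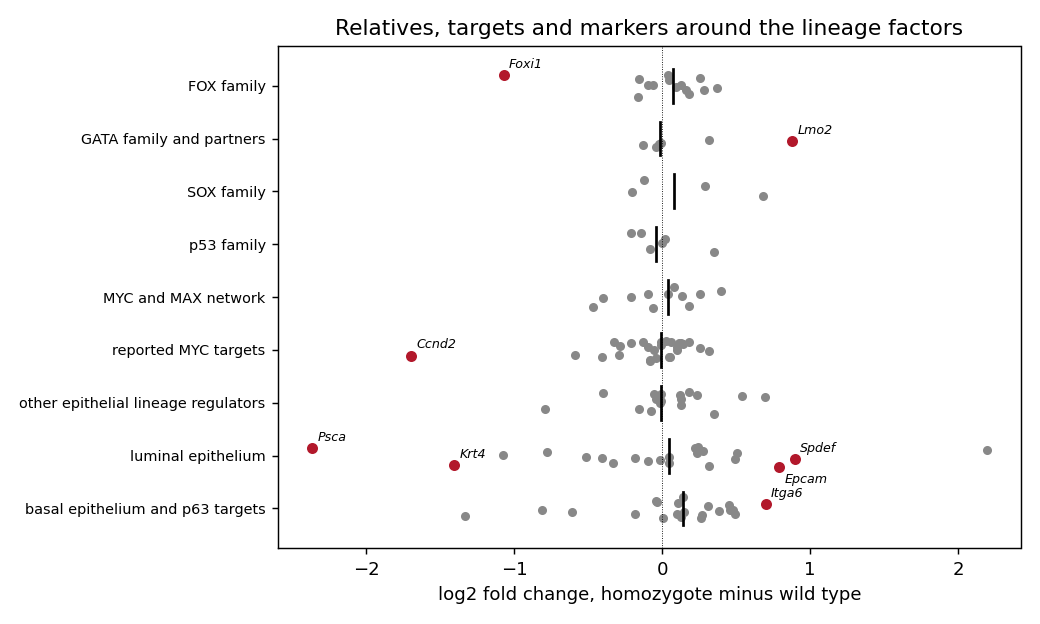
Log2 fold change, homozygote minus wild type, of each tested gene in 9 lists around the lineage factors, with a black bar at each median and called genes in red with their names. The medians lie between -0.04 and 0.14.

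The genes most like Sox2 over the 4 libraries were sought by the root mean square difference of log2(scaled FPKM + 1) after centring each gene on its mean. The nearest was Ptprt, a receptor-type tyrosine phosphatase gene (0.00611), at 5.92 and 5.28 scaled FPKM in homozygotes 26 and 29 and 1.54 and 2.64 scaled FPKM in wild types 27 and 28. Next were 5330417C22Rik (0.0608), at 267 and 251 scaled FPKM in homozygotes and 109 and 150 scaled FPKM in wild types, and the G protein subunit gene Gna15 (0.0632), at 3.37 and 3.35 scaled FPKM in homozygotes and 0.602 and 1.43 scaled FPKM in wild types. With 4 libraries, this likeness is a description of shape.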

How the data were processed

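The deposited table gives 1 FPKM value per gene and library. The unit was read from the values, and TopHat 1.3, Cufflinks 1.3 and build mm10 are listed in the submitters' processing notes, without settings, annotation or strandedness. The authors' deposited fold, a score column read as log2 homozygote over wild type, and the authors' deposited p-value and q-value were used as an alternative. The value 99999, found in 7 genes, was treated as missing. Starts were raised by 1.

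Each library was divided by its median ratio over genes of at least 1 FPKM throughout (factors 1.01, 1.04, 0.921 and 1.03 for mice 26, 29, 27 and 28). Values were logged as log2(scaled FPKM + 1), and genes whose mean reached 1 without a missing value were fitted with limma 3.58.1 in R 4.3.3 (trend, two-sided, Benjamini-Hochberg, 2 residual degrees of freedom). The fit was tested on simulated data. Where replicates are single mice, p-values set a difference against the spread between the 2 mice within each genotype. For each gene that spread was moderated over all tested genes (3.62 prior degrees of freedom). Depth was estimated from the lowest step of FPKM in 1-transcript genes and is approximate. Intervals of 95% are limma's. Count tests were not run on FPKM.

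Named genes are the 8 members, the called genes of each list or else its 2 largest statistics, and the 3 genes most like a called member. Cell type markers below these ranks, and Svs1, Pbsn, Gata1 and Sox2ot, serve as descriptions. Some genes that this rule names are not reported here. The members and lists were chosen with earlier results of these data known.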

Additional observations from a re-analysis of the deposited data

How the results depend on the processing

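Of 11762 genes, 900 passed, 547 higher and 353 lower in homozygotes. Without each library in turn the count was 355 to 2028 (216 to 995 higher, 139 to 1033 lower), and the authors' deposited q-value gave 2034 (1012 higher, 1020 lower). Calls that were higher made up 60.8%, against 73.0% with unscaled FPKM (185 lower) and 39.4% with epithelial gene scaling (313 higher). A minimum mean of 5 left 231 lower. Epithelial gene scaling moved the median of all genes to -0.16, and relative to it Sox2 was at 1.14 and Foxa1 at 0.08. The lineage factors called numbered 0 with unscaled FPKM, 0 without a filter and 0 to 3 without each library. With epithelial gene scaling Foxa1 turned to -0.0825, and with unscaled FPKM Gata2 turned to 0.00094. Without each library in turn the range was -0.15 to 0.35 for Foxa1, -0.0638 to 0.55 for Sox9, -0.16 to 0.56 for Trp63, -0.0541 to 0.46 for Gata3, -0.19 to 0.0465 for Gata2, -0.98 to 0.0284 for Upk1b, -2.81 to 0.17 for Upk2 and -0.10 to 0.39 for Rora. The cause was not tested. Myc kept its sign in all 13 alternatives. No paired analysis was possible because the labels give no litter or pairing of the mice. With 2 mice a genotype, differences as small as those of Foxa1 or Myc were not detectable, and FPKM hides the count behind low values such as those of Foxa2.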
